A study of Lotus japonicus with 6 samples.

Results

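In 21 loci of Lotus japonicus, the balance between the transcripts counted for 1 locus differed between nodules that overexpressed a NAC transcription factor and control nodules. Lotus japonicus is a legume whose root nodules house nitrogen-fixing rhizobia. The study compared 3 libraries of nodules from a NAC-OE line, which its title ties to ectopic expression of NAC094, with 3 libraries from a GUS-OE line that overexpressed the reporter GUS. Both lines were in the MG-20 background and nodules were sampled at 3 weeks post-inoculation, so age and background were common to the groups. The promoter of the constructs, the number of plants per library and the inoculated strain are not stated in the labels. Replication is described as biological, but what set the libraries of a group apart is not stated. P-values from these libraries would measure only the spread between them.

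Many plant genes give several transcripts, which differ in their start, their splicing or their end, and the balance between them can change while the output of the gene stays level. NAC proteins are plant transcription factors, several of which act in senescence, the ordered breakdown of an organ. In a senescing nodule, nitrogen fixation stops and both the bacteria and their host cells are broken down.

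The deposited table has 46398 transcript rows, whose identifiers give 37427 loci when cut at the first dot. Of these loci, 6697 had 2 or more rows, and 4133 of them had summed counts of at least 100 in each of the 6 libraries. The share of a transcript is its count divided by the sum over its locus in the same library. Loci were chosen by these shares: a locus was taken where the mean share of some transcript differed by at least 25 percentage points between the groups and all 3 values of one group lay above all 3 of the other. This chose 21 loci with 51 transcripts, or 0.508% of the 4133. The shares of these loci are therefore given as a description without a test, and calls from a test over the whole table are used further on only to sort the loci, since they come from the same contrast. Shares compare transcripts within a library, so no scaling between libraries enters them.

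Total counts were between 35531188 and 39513316 per library, and libraries of the same group had log2 CPM correlations of 0.969 to 0.987, against 0.712 to 0.767 for libraries of different groups. No identifier matched the gene table of the Gifu assembly, so no locus was given a gene name, a function or a sequence. Nodule identity was for the same reason not checked against marker genes. In whole nodules, fewer cells of a type and less RNA per cell cannot be told apart, and either could alter a transcript's count.

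Shifts of this size were rare among the eligible loci, but not all of these could show one. In a locus with equal counts in all its rows, shares cannot differ between the groups. When rows with equal counts were merged, 3320 loci stayed eligible and the same 21 met the rule. The values below are over all 4133 and so include loci with fixed shares. The largest share difference of a locus had a median of 0.427 points over the 4133 loci, a 90th percentile of 3.51 and a 99th percentile of 18.5. A difference of at least 10 points was found in 135 loci and one of at least 20 points in 35. Shares of some transcript did not overlap between the groups in 874 loci (21.1%), most of them with small differences. In 2204 loci (53.3%), every share in every library lay within 5 points of an even split between the transcripts, and none of the 21 loci was among these. How reads common to several transcripts were divided is not stated in the labels or the file. If such reads were divided evenly, shares would be drawn towards an even split and would understate unequal use of transcripts with sequence in common.

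**Figure D1:**
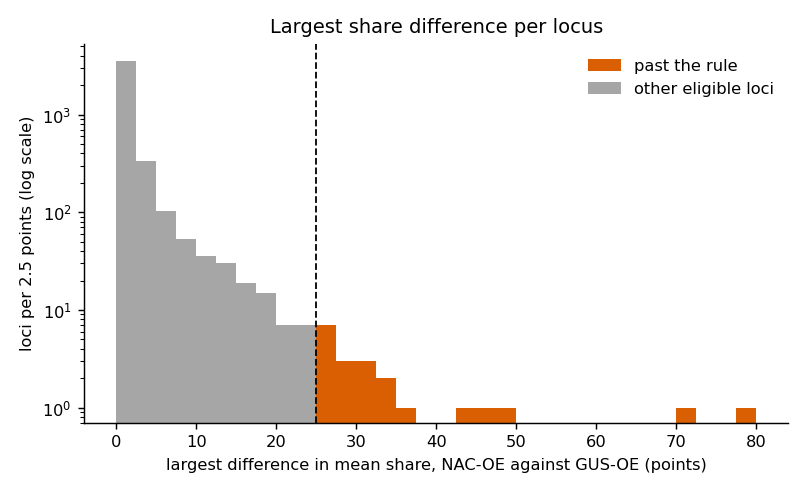
Number of loci (log scale) by the largest difference in mean share between NAC-OE and GUS-OE in percentage points, for the 4133 eligible loci in classes of 2.5 points. The dashed line marks 25 points, past which lie the 21 loci described here; the median of all is 0.427 points.

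The threshold cuts a continuous range. The smallest differences inside it were 25.01, 25.02 and 25.63 points, and the largest outside it were 24.33, 24.0 and 23.96 points, in loci whose groups also did not overlap. No locus with a difference of 25 points or more was left out for overlapping groups. In the gaining transcript, the one whose mean share rose most, the gap between the highest GUS-OE and the lowest NAC-OE library was between 6.87 and 74.1 points.

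**Figure D2:**
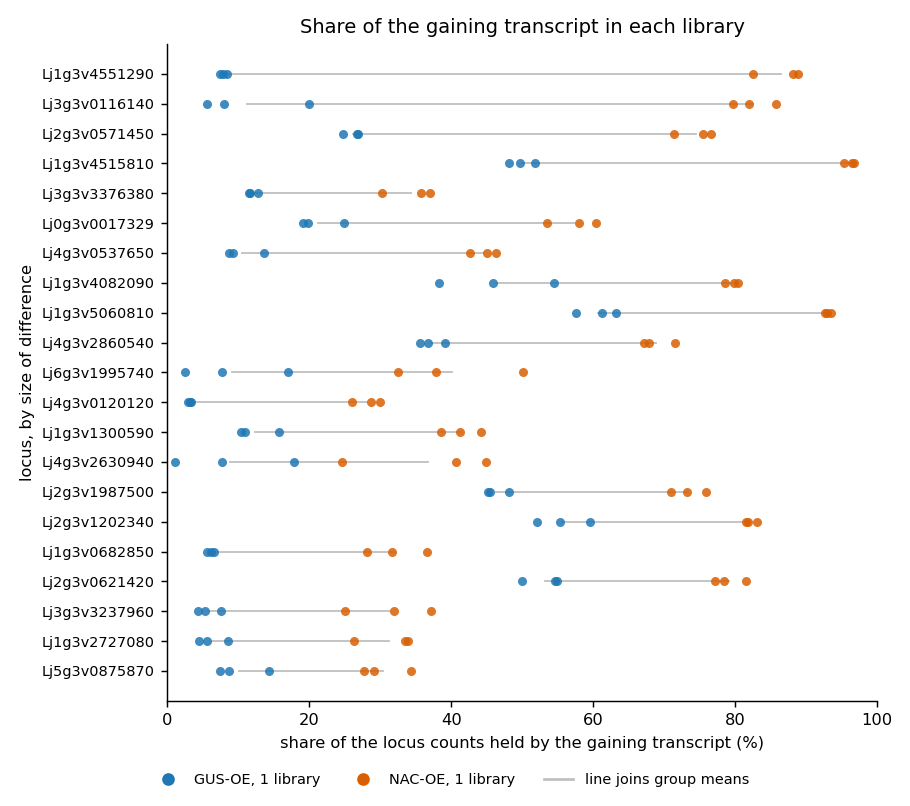
Share of the locus counts held by the gaining transcript (%), 1 point per library, for the 21 loci ordered by the largest share difference; a line joins the 2 group means. All 3 NAC-OE points lie to the right of all 3 GUS-OE points in each locus, and the points of a group spread widest in Lj4g3v2630940.

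Choosing loci without 1 replicate number gave a reading in libraries that the choice did not use. With number 1 left out of both groups, 23 loci passed the rule, and in the unused libraries all 23 had a share difference of the same direction, with a median of 28.0 points and a lowest of 13.0. Without number 2, 21 loci passed and all 21 kept their direction in the unused libraries, with a median of 29.5 points and a lowest of 9.29. Without number 3, 19 loci passed and all 19 kept it, with a median of 32.2 points and a lowest of 15.5. The unused libraries reached 25 points in 14, 13 and 13 of those loci. Differences in the libraries that chose the loci were larger, with medians of 30.4, 31.3 and 32.4 points. Of the loci so chosen, 20, 17 and 17 were among the 21.

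Each transcript was also tested for a difference between groups over the whole table, with edgeR's quasi-likelihood test and a Benjamini-Hochberg adjusted p under 0.05 as the threshold for a call. Of the 51 transcripts, 13 were called higher in NAC-OE, 27 lower and 11 were not called. Over all 46346 transcripts tested, 31.5% were called higher and 30.7% lower. In 7 loci the gaining transcript was called higher and the losing one, whose share fell most, was called lower, a pattern present in 0.46% of the eligible loci. In another 7 loci the losing transcript was called lower and the gaining one was not called (3.94% of eligible loci). In 3 loci the gaining transcript was called higher and the losing one was not called (3.22%). Both were called lower in 3 loci (31.6%) and both higher in 1 locus (25.8%).

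**Figure D3:**
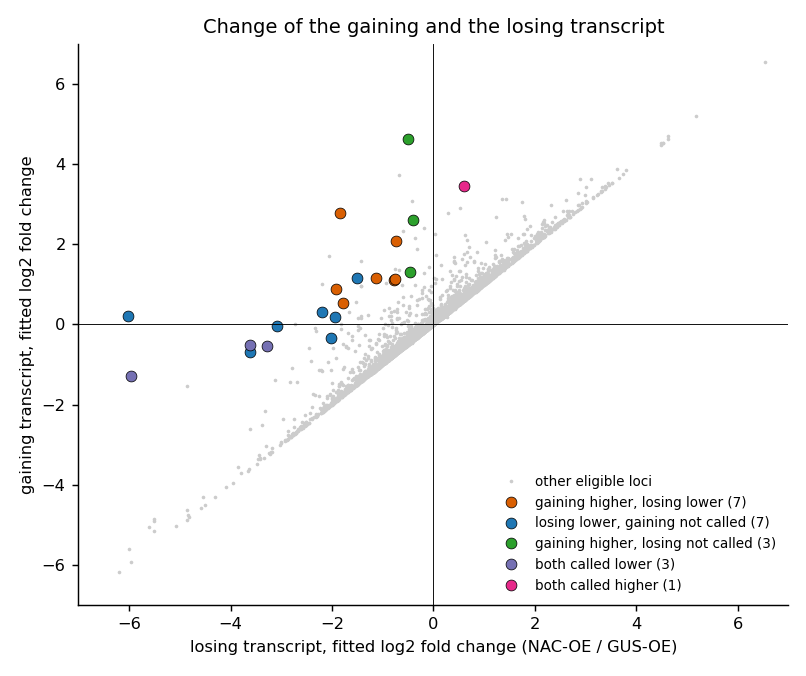
Fitted log2 fold change (NAC-OE over GUS-OE, edgeR) of the gaining transcript (vertical axis) against that of the losing transcript (horizontal axis), for the 21 loci coloured by their calls and for the other eligible loci in grey. Most grey points lie along the diagonal, where both transcripts moved alike, and the 21 loci lie above it, a position that follows from how they were chosen.

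The 2 largest shifts had opposite make-ups. In Lj1g3v4551290 on chromosome 1, the first transcript (4382 bases) had counts of 15473.89, 20706.14 and 17554.58 in control nodules and of 444, 302.5 and 296.5 in NAC-OE. The second transcript (1735 bases) had 1240.6, 1895.6 and 1497.9 counts in control nodules and 2091.25, 2263.5 and 2384.25 in NAC-OE. The first transcript was abundant in all 3 control libraries and scarce in all 3 NAC-OE libraries, while the second was counted somewhat more often in each of them. The share of the first went from 92.1% ± 0.48 in GUS-OE to 13.5% ± 3.53 in NAC-OE (SD, n = 3). In CPM with TMM-scaled library sizes, the first transcript was 65.3-fold lower in NAC-OE, at 8.24 ± 2.02 against 538 ± 92.3, and was called lower. The second, at 53.3 ± 5.82 against 46.5 ± 11.1 CPM (SD, n = 3), was not called, except with library size alone, where it was called higher. The sum over this locus fell from 575 ± 98.5 to 62.5 ± 5.52 CPM (SD, n = 3) and was called lower.

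Lj3g3v0116140 on chromosome 3 changed the other way. Its first transcript (2117 bases) had 82, 117 and 369 counts in control nodules and 4615, 7143 and 5605.5 in NAC-OE. Its second transcript (2505 bases) had 1398, 1340 and 1479 counts in control nodules and 1169, 1572 and 925 in NAC-OE. Here a scarce transcript became the main one beside another whose groups overlapped in counts. The share of the first was 11.2% ± 7.71 in control nodules and 82.5% ± 3.06 in NAC-OE (SD, n = 3), and the wide spread in GUS-OE came from replicate 3, at 19.97% against 5.54% and 8.03%. The first transcript was 24.7-fold higher in NAC-OE by mean CPM and was called higher. The second was not called, but among the other tools and the fits without 1 library it was called lower by limma-voom and without NAC-OE replicate 2. The sum over the locus was 47.0 ± 5.55 CPM in control nodules and 171 ± 54.2 in NAC-OE (SD, n = 3) and was called higher.

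**Figure D4:**
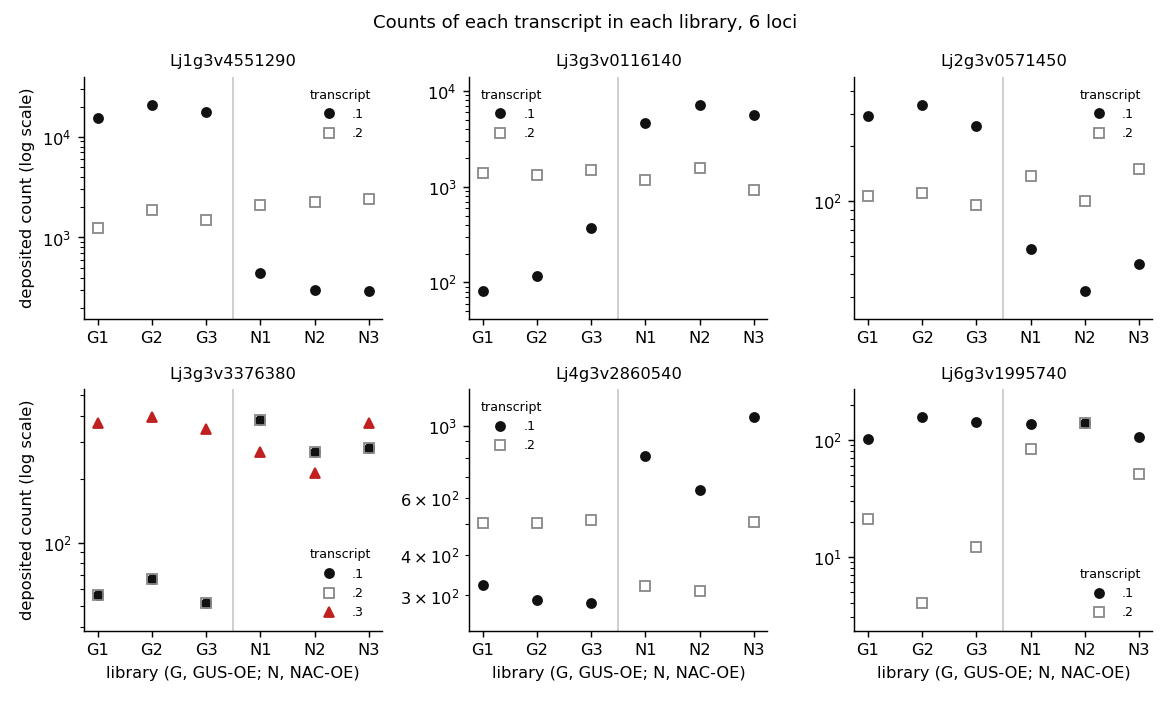
Deposited counts (log scale) of each transcript in the 3 GUS-OE (G1 to G3) and the 3 NAC-OE (N1 to N3) libraries, for the 6 loci named by the fixed rule. In Lj1g3v4551290 and Lj2g3v0571450 the first transcript drops below the second in NAC-OE, in Lj3g3v0116140 it climbs above it, and in Lj6g3v1995740 the first transcript stays close to level while the second lies higher.

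A losing transcript called lower beside an uncalled partner was the pattern of 7 loci, Lj1g3v4551290 among them. In these loci the losing transcript was lower in NAC-OE by 2.84-fold to 65.3-fold in mean CPM, with a median of 4.6-fold. The gaining transcript stood at 0.622 to 2.27 times its GUS-OE mean and was not called in any of them. Lj2g3v0571450 on chromosome 2 is the second of them by size. Its first transcript (660 bases) had 294.4, 336.8 and 259 counts in control nodules and 55, 32.5 and 45.5 in NAC-OE. Its second (1364 bases) had 107.5, 110.5 and 95 counts in control nodules and 137.5, 100 and 149.5 in NAC-OE, so the groups overlapped. The first transcript held 73.9% ± 1.21 of the locus in control nodules and 25.5% ± 2.75 in NAC-OE (SD, n = 3). The locus as a whole was called lower, at 11.9 ± 1.65 CPM in control nodules and 4.12 ± 0.52 in NAC-OE (SD, n = 3).

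Further loci of this pattern, singled out after their values were seen, differed in how even their libraries were. In Lj1g3v4082090 the losing transcript had 285, 241 and 304 counts in control nodules and 86, 92 and 95 in NAC-OE. Its partner had 342.17, 149.83 and 257.5 counts in GUS-OE, and this spread moved the gaining share from 38.34% to 54.56% between control libraries, against 78.66% to 80.39% in NAC-OE. In Lj4g3v2630940 on chromosome 4, the scarcest of the 21 loci by mean CPM, the gaining transcript had 38.33, 1.67 and 17.23 counts in control nodules and 69.61, 31.33 and 64.28 in NAC-OE. Of the fits without 1 library, the one without GUS-OE replicate 1 called this transcript higher. Counts overlapped between the groups there although shares did not, and the gap between the groups' shares was the smallest of the 21, at 6.87 points. Its transcripts are numbered 2 to 4, and the deposited table has no row numbered 1 for this locus. Lj3g3v3237960 on chromosome 3 kept the same main transcript in both groups, which held 94.3% ± 1.71 of the locus in control nodules and 68.7% ± 6.07 in NAC-OE (SD, n = 3). That transcript was 12.3-fold lower in NAC-OE by mean CPM, and its scarce partner, at 119, 181 and 108 counts in control nodules and 78, 115 and 129.5 in NAC-OE, was not called. Of the fits without 1 library, the one without GUS-OE replicate 3 called the partner lower. In Lj2g3v1987500 on chromosome 2, the first and second transcripts (1230 and 1046 bases) together gave way to the third (1066 bases), which held 46.3% ± 1.65 of the locus in control nodules and 73.4% ± 2.47 in NAC-OE (SD, n = 3). The third had 308.5, 269 and 292 counts in control nodules and 309, 245 and 319 in NAC-OE, whereas the first was 4.04-fold and the second 4.13-fold lower in mean CPM. Lj5g3v0875870 on chromosome 5, the last inside the threshold, had a first transcript (767 bases) of 137, 178.33 and 184.58 counts in control nodules and 36.42, 33.33 and 71.92 in NAC-OE. Its second (696 bases) had 38.5, 26.67 and 24.08 counts in control nodules and 32.42, 48 and 59.42 in NAC-OE, with overlap between the groups. The third (1055 bases) had 94.5, 103.5 and 116.92 counts in control nodules and 48.08, 58.33 and 73.08 in NAC-OE and was called lower. It held 34.8% ± 1.19 of the locus in control nodules and 39.6% ± 3.3 in NAC-OE (SD, n = 3), where the third and not the gaining transcript was the main one.

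Opposite movement of the transcripts of 1 locus was rare in the table. Over the 4133 eligible loci, 20 (0.484%) had transcripts called in opposite directions, and 7 of the 21 loci were among them, which is 35.0% of the former and 33.3% of the latter. The calls and the choice of the 21 loci rest on the same contrast, so nothing is read from this overlap. The 4133 also include loci with equal counts in all their rows, which cannot have opposite calls. With library size alone 5 of the 21 loci had opposite calls, and by limma-voom 8 had. In the 7 loci with opposite calls in the main fit, the gaining transcript was 1.45-fold to 6.86-fold higher in mean CPM. Their losing transcript was 1.68-fold to 3.78-fold lower. Lj3g3v3376380 on chromosome 3 has 3 transcripts, of which the first and second (3874 and 3924 bases) had the same count in every library. Each of these had 56.67, 67.17 and 51.75 counts in control nodules and 384.05, 270 and 282.75 in NAC-OE. The third (1951 bases) had 371.42, 393.67 and 345.75 counts in control nodules and 270.5, 214.25 and 370 in NAC-OE. The longer pair was low in all control libraries and 4.19-fold higher in NAC-OE, whereas the third overlapped in counts between the groups. The third held 76.1% ± 1.3 of the locus in control nodules and 31.3% ± 7.21 in NAC-OE (SD, n = 3), with NAC-OE replicate 3 highest at 39.55%. It was called lower at 6.63 ± 1.17 against 11.1 ± 1.02 CPM (SD, n = 3), a call that is lost with library size alone.

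The locus sum was not called in Lj4g3v2860540 on chromosome 4, although both of its transcripts were called. The first transcript (2993 bases) had 322.67, 291.1 and 284.45 counts in control nodules and 810, 634.78 and 1067.42 in NAC-OE. The second (1731 bases) had 501.26, 501.15 and 514.1 counts in control nodules and 321.5, 309.56 and 504.81 in NAC-OE. The first was higher in every NAC-OE library, while the second in NAC-OE replicate 3 fell between the control values. The share of the first was 37.2% ± 1.81 in control nodules and 68.9% ± 2.35 in NAC-OE (SD, n = 3), so the main transcript changed. The sum over the locus was 23.8 ± 0.595 CPM in control nodules and 28.8 ± 4.83 in NAC-OE (SD, n = 3). This sum was called higher without NAC-OE replicate 2 or when library sizes were used unscaled, and in the latter case the second transcript was no longer called lower.

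The remaining opposite pairs include a locus of 3 transcripts that kept its main one. In Lj4g3v0120120 on chromosome 4 the first transcript (4127 bases) held 50.3% ± 2.52 of the locus in control nodules and 54.5% ± 0.85 in NAC-OE (SD, n = 3) and was not called. The second (1671 bases) had 1372, 1751.5 and 1310 counts in control nodules and 436.5, 500.5 and 631.5 in NAC-OE. The third (2086 bases) had 84, 116.5 and 92.5 counts in control nodules and 898, 812.42 and 827.5 in NAC-OE. The third thus passed the second, which in control nodules had been counted about as often as the first. In Lj0g3v0017329, on sequence not placed on a chromosome, the losing transcript (529 bases) had 456.5, 670.5 and 580.5 counts in control nodules and 263.5, 172.5 and 194.5 in NAC-OE. Its longer partner (1148 bases) had 151, 158.67 and 144 counts in control nodules and 304, 263 and 268 in NAC-OE. The main transcript by count changed there, but by FPKM, which divides by length, the shorter one held 61.7% in NAC-OE and stayed the main one. The call of its longer transcript was lost without GUS-OE replicate 1, without GUS-OE replicate 3 or without NAC-OE replicate 1.

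In Lj4g3v0537650 on chromosome 4, a long first transcript (5336 bases) had 919.33, 784.33 and 993.25 counts in control nodules and 284, 225.42 and 408 in NAC-OE. Its short partner (1104 bases) had 93, 124 and 95.25 counts in control nodules and 232.5, 167.42 and 352 in NAC-OE. The groups did not overlap in either transcript, and the long one kept most of the counts, at 55.4% ± 1.88 in NAC-OE (SD, n = 3). By FPKM the short one held 79.5% there, against 35.9% in control nodules. Lj2g3v1202340 on chromosome 2 kept its first transcript (1177 bases) as the main one, at 818, 721 and 929 counts in control nodules and 2060, 2239.5 and 2520 in NAC-OE. Its second (1577 bases) had 752, 489 and 751 counts in control nodules and 456, 505 and 514 in NAC-OE. Control replicate 2 lies among the NAC-OE values of that second transcript, and its call as lower was lost with library size alone.

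A gaining transcript was called higher beside an uncalled partner in 3 loci, Lj3g3v0116140, Lj6g3v1995740 and Lj2g3v0621420. In Lj6g3v1995740 on chromosome 6 the sum over the locus was not called, at 4.33 ± 0.625 CPM in control nodules and 5.41 ± 2.06 in NAC-OE (SD, n = 3). Its first transcript (4587 bases) had 103, 157 and 143 counts in control nodules and 138, 140 and 106 in NAC-OE. Its second (1381 bases) had 21, 4 and 12 counts in control nodules and 84, 141 and 51 in NAC-OE. The first overlapped between groups, and the second was higher in every NAC-OE library, from low counts. The share of the second went from 9.05% ± 7.31 to 40.2% ± 9.07 (SD, n = 3), among the widest spreads of the 21 loci. By FPKM the second transcript held 23.4% in control nodules and 68.5% in NAC-OE, so per length the main transcript changed, which by count it did not. In Lj2g3v0621420 on chromosome 2 the gaining transcript was 2.47-fold higher in mean CPM, and the share moved from 53.2% ± 2.76 to 79.1% ± 2.29 (SD, n = 3). Its losing transcript was called lower without GUS-OE replicate 2.

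Both transcripts were lower in Lj1g3v4515810, Lj1g3v5060810 and Lj1g3v0682850, all on chromosome 1, but by unequal amounts. Lj1g3v4515810 was the most abundant of the 21 loci, at 2400 ± 151 CPM in control nodules and 524 ± 52.7 in NAC-OE (SD, n = 3). Its first transcript (1935 bases) had 42941, 35421 and 44042 counts in control nodules and 847.5, 570.5 and 1115 in NAC-OE. Its second (2048 bases) had 42486, 38164.5 and 40899 counts in control nodules and 23320.83, 16888 and 23150 in NAC-OE. The transcripts were equally counted in control nodules, at 50.1% ± 1.86 for the first, and the first held 3.79% ± 0.71 in NAC-OE (SD, n = 3). In mean CPM the first was 62.3-fold lower and the second 2.45-fold lower. Lj1g3v5060810 resembled it at lower abundance, with the losing transcript 12.3-fold and the gaining one 1.43-fold lower in mean CPM. Lj1g3v0682850 has 5 transcripts, of which the first to the fourth were 9.77-fold to 12.6-fold lower and the fifth 1.45-fold lower. The fifth had 454.38, 317.3 and 384.66 counts in control nodules and 338.06, 303.73 and 367.32 in NAC-OE, so it overlapped in counts and became the main transcript by count. The calls of the gaining transcripts of Lj1g3v5060810 and Lj1g3v0682850 were lost with library size alone, and that of Lj1g3v0682850 also without GUS-OE replicate 1 or without any 1 of the 3 NAC-OE libraries.

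Lj1g3v2727080 was the 1 locus in which both transcripts were called higher. Its short second transcript (925 bases) had 9.5, 12 and 10 counts in control nodules and 96, 173.5 and 177 in NAC-OE, and was 11.1-fold higher in mean CPM. The long first transcript (5994 bases) had 202.5, 128.5 and 167.5 counts in control nodules and 268.5, 344.5 and 345.5 in NAC-OE. Among the fits without 1 library, its own call, for a 1.53-fold difference, was lost without GUS-OE replicate 2, GUS-OE replicate 3, NAC-OE replicate 2 or NAC-OE replicate 3. The share of the short transcript moved from 6.22% ± 2.09 to 31.2% ± 4.25 by count (SD, n = 3), and from 29.7% to 74.4% by FPKM, so that the main transcript changed by FPKM but not by count.

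By locus sums, 5 of the 21 loci were called higher, 14 lower and 2 were not called, where 31.2% of all 37386 loci tested were called higher and 30.4% lower. With library size alone the split was 6 higher and 10 lower. The calls of lower sums were lost most often in Lj4g3v0120120 and Lj1g3v4082090, whose sums in NAC-OE were 0.773 and 0.698 times those in GUS-OE. Median log2 fold changes of the sum were -0.70 over the 21 loci and -0.05 over the other eligible loci. Library size alone moved the median of all transcripts from 0.01 to 0.34.

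The transcript with most counts was not the same in the 2 groups in 12 of the 21 loci, and in 309 of the 4133 eligible loci (7.48%). Only 292 eligible loci had a largest share difference of at least 5 points. Some of the 309 were thus changes of rank between transcripts counted almost equally often. Ranks went by mean share, and some of the 12 were close too. The 2 leading means were 36.78% and 36.55% in NAC-OE for Lj4g3v2630940, and 50.08% and 49.92% in GUS-OE for Lj1g3v4515810. Single libraries also departed from their group. The losing transcript of Lj3g3v3376380 still led in NAC-OE replicate 3, at 39.55%. In Lj1g3v4082090 the gaining one already led in GUS-OE replicate 1, at 54.56%. By FPKM shares, 11 of the 21 loci changed their main transcript. The gaining transcript was the same by count and by FPKM in all 21 loci. FPKM shares of 17 of them also met the rule, and 28 loci met it in all. The 4 that did not were Lj1g3v5060810, Lj1g3v1300590, Lj2g3v1202340 and Lj3g3v3237960. Length weighs most in Lj1g3v1300590, where the gaining transcript of 3742 bases stood beside transcripts of 642 and 607 bases. Its share of counts moved from 12.4% ± 2.93 to 41.3% ± 2.87 (SD, n = 3), but its share of FPKM from 2.32% to 10.5%.

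**Figure D5:**
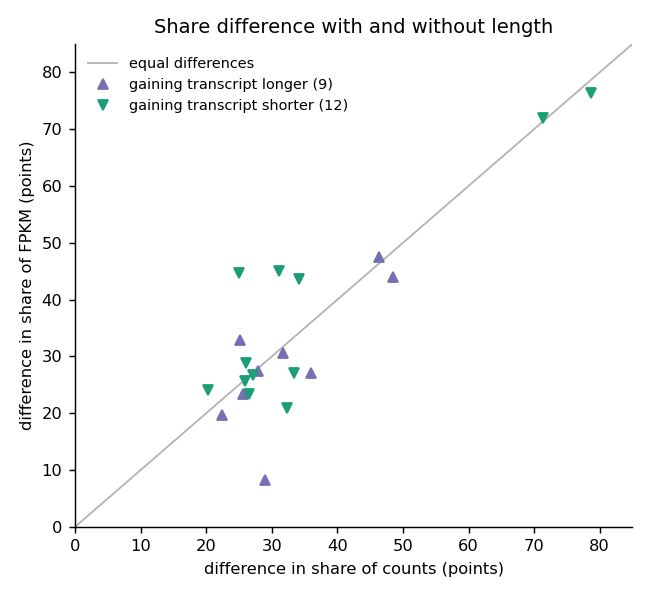
Difference in the gaining transcript's share (NAC-OE minus GUS-OE, percentage points) by count and by FPKM, 1 point per locus, with the line of equal differences. The locus farthest below the line is Lj1g3v1300590, at 28.95 points by count and 8.22 by FPKM, and the 3 farthest above it, at 43.59 to 45.05 points by FPKM, are loci whose gaining transcript is much shorter.

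The gaining and the losing transcript of the 21 loci had a median length ratio, longer over shorter, of 1.8. The median was 1.16 over the other 4112 eligible loci, but many of these had equal counts in all their rows. In such loci no transcript gained or lost, and 1 row stood for both, at a ratio of 1. This can lower the 1.16, so whether the 21 loci differed more in length than other loci cannot be read from it. The part of length in the choice of loci was not tested. The gaining transcript was the longer one in 9 loci and the shorter one in 12. In the other eligible loci it was longer in 1565 and shorter in 1654. A further 893 had equal or unknown lengths, or equal counts in all their rows, so that no transcript gained. The first-numbered transcript was the losing one in 12 of the 21 loci (57.1%). It was counted so in 56.5% of the others, but loci with equal counts in all their rows were assigned their first listed row. The 2 percentages therefore cannot be compared.

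Whether the transcripts of a locus overlap could be read only from their counts. A row with whole counts in every library shows no sign of a divided read. Such a row was present in 4 of the 21 loci (19.0%), against 1.8% of the other eligible loci. The 4 were Lj3g3v0116140, Lj1g3v4082090, Lj6g3v1995740 and Lj2g3v1202340, each with 2 transcripts. The other loci include those near an even split in every library or with equal counts in all their rows. None of these could meet the rule, so the 2 percentages cannot be read as a trait of the 21 loci. In Lj6g3v1995740 both rows were whole throughout. For the 4 loci with a whole-count row the counts give no sign of reads common to both rows. How such reads were treated is not stated. Whether the rows are forms of 1 transcript or separate models therefore cannot be told from the table. Among the 14 loci with 2 transcripts, 58 of 84 library values held a fraction. An even division between the 2 rows alone would leave a whole difference between them, and 9 of the 58 had one, to within 0.011 counts. The other 49 involve reads divided in another way, as between other loci or copies, and which ones was not analysed here. The use of strand in counting is not stated, so reads of an antisense neighbour could be included in any of these rows.

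By their identifiers, 7 of the 21 loci lie on chromosome 1, 4 each on chromosomes 2 and 4, 3 on chromosome 3, and 1 each on chromosomes 5 and 6 and on unplaced sequence. Unplaced sequence held 1055 of the eligible loci (25.5%) and chromosome 1 held 792 (19.2%). No 2 of the 21 loci were neighbours in the list of loci. The closest were Lj1g3v4515810 and Lj1g3v4551290, with 57 other loci between them, and Lj2g3v0571450 and Lj2g3v0621420, with 73. In abundance the 21 loci ran from the 3.29th to the 99.8th percentile of eligible loci, and 11 of them lay above the median. The median locus sum was 21.3 CPM, against 19.3 CPM in the other eligible loci.

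Replicates spread more in these shares than in shares at large. The median SD of a share was 1.86 points in control nodules and 2.62 points in NAC-OE over the 51 transcripts, and 0.413 and 0.468 points over all transcripts of eligible loci. The latter values include loci with equal counts in all their rows, where shares cannot vary, and loci near an even split. The 2 sets are therefore not alike. No single library was the extreme one throughout. Among NAC-OE libraries the gaining share was highest in replicate 3 for 10 loci, in replicate 2 for 7 and in replicate 1 for 4. Among GUS-OE libraries it was highest in replicate 2 for 10 loci, in replicate 1 for 8 and in replicate 3 for 3. With each library left out in turn, 14 of the 21 loci met the rule every time. The other 7 had share differences of 27.90 points or less, and Lj1g3v2727080 met it in 2 of 6 cases, the fewest.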

How the data were processed

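Nodule RNA was made into libraries with a NEBNext Ultra II kit, per the labels' protocols. Reads were handled with fastp 0.22.0, HISAT2 and featureCounts, per the submitters' processing notes, and settings, genome build, annotation, strand and the division of reads are not stated there. The authors deposited estimated counts (fractional) and FPKM per transcript, per the file headers, and 51.3% to 52.7% of the counts in a library were not whole. Transcript lengths were derived from the deposited counts and FPKM, to within 17.2 bases in the 51 transcripts.

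Shares were computed from the deposited counts (pandas 2.3.3). For calls, counts, or their sums per locus, were rounded and fitted over the whole table with edgeR 4.0.16 in R 4.3.3 (glmQLFit, glmQLFTest, robust, TMM, filterByExpr with minimum count 10, group alone, Benjamini-Hochberg). Scripts were tested on simulated data. Alternatives were no filter on low counts, RLE scaling, library sizes without factors, DESeq2 1.42.0, limma-voom (limma 3.58.1), a replicate block, each library left out, other limits of the rule, FPKM shares and merging of rows with equal counts.

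The loci and the rules were chosen with earlier results of these data known. Loci named by rule are the first 2 with a sum called higher, the first 2 called lower and up to 6 not called, by largest share difference; 2 of the last kind existed. Others were named after their values were seen. None of the identifiers matched the 40429 genes of the reference table, so gene lists, markers and sequences were not used here. Over whole counts, libraries of a group differed by a chi-square of at least 13.9 per degree of freedom, so each was counted once.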

Additional observations from a re-analysis of the deposited data

How the results depend on the processing

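The number of loci follows from the threshold: 35 loci met the rule at 20 points, with a longer gaining transcript in 17, and 11 met it at 30 points, with 5. On FPKM shares the main transcript changed in 19 of the 28 loci that met the rule, and the gaining transcript was longer in 15. With a locus sum of at least 50 or 200 counts in every library, 26 or 16 loci met the rule, 21 or 16 of them shared with the 21. Merging rows with equal counts gave the same 21 loci. Leaving out 1 library gave 17 to 24 loci, a changed main transcript in 10 to 13, and a longer gaining transcript in 8 to 11. Without 1 library, 11 to 13 member transcripts were called higher and 25 to 28 lower, 6 to 8 loci had opposite calls, and 5 to 6 locus sums were higher and 10 to 12 lower. Asking that all same-numbered differences share a sign gave the same 21 loci, which follows from groups that do not overlap and says nothing of a pairing. With the replicate block in edgeR, 13 transcripts were called higher and 28 lower, 9 loci had opposite calls, and of the locus sums 5 were higher and 12 lower. The block called the second transcript of Lj3g3v0116140 and that of Lj3g3v3237960 lower and the gaining transcript of Lj4g3v2630940 higher. It no longer called the second-numbered transcript of Lj4g3v2630940, the first of Lj1g3v2727080 or the sums of Lj4g3v0120120 and Lj1g3v4082090. Deviations from the group means correlated at -0.09, 0.12 and -0.08 between same-numbered libraries, and 2 of the 6 libraries correlated best with their own number, so the numbers were not treated as pairs. None of the member transcripts or sums called was called in the opposite direction under any of the 12 alternatives of the calls. The median held-out share difference was 29.5 points over the 3 hold-outs. Depth limits the loci with the fewest counts most, and divided reads and PCR copies mean that counts are not independent molecules.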
